A study of Mus musculus with 18 samples.

Results

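The complement set described here held 9 genes, taken by name and not by any measured value: the C1q subunits C1qa, C1qb and C1qc, the central components C3 and C4b, the alternative pathway genes Cfb and Cfp, and the anaphylatoxin receptors C3ar1 and C5ar1. All 9 were found among the 47729 reference genes that each of the 18 expression tables lists, and all 9 passed the filter on low values. RNA of splenocytes was sequenced from C57BL/6J mice that are all labelled female, and the deposited unit is FPKM, fragments per kilobase of gene scaled to the size of the library. The study asked how LPPC, a cationic lipo-PEG-PEI complex that adsorbs proteins on its surface, steers immunity when it carries MP, membrane proteins from antigen-loaded dendritic cells, with or without an antibody to CD28 or to CTLA4 (CD152 in the labels).

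The N group (n = 3) had no treatment. The LM group (n = 3) was injected with LPPC/MP, boosted with it, and sampled a week after the boost. The LMA group (n = 6) received LPPC/MP in the same way and was then modulated once a week with LPPC/MP/CD28, 1 or 2 times. For the LMS group (n = 6) the modulation was LPPC/MP/CTLA4. How many times a given sample was modulated is not in the labels. LMA and LMS thus differed from LM in the antibody, in the number of doses and in the week of sampling, and these cannot be told apart. The age in the protocol labels is lower than that in the methods, and the protocol labels describe tumour tissue, whereas the sample labels and methods name spleen. Separate animals are not stated for the samples of a group, and the p-values here measure only the spread between samples, which may be technical.

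Complement is a cascade of plasma proteins that marks particles for uptake and releases small fragments that attract leukocytes. C1q, built from the A, B and C chains, starts the classical pathway when it binds antibody on a surface, C4 and C2 then form the enzyme that cleaves C3, and factor B (Cfb) with properdin (Cfp) forms and stabilises the enzyme of the alternative pathway. The liver makes most plasma complement, but tissue macrophages make C1q, and myeloid cells make properdin, factor B and C3. The fragment C3a acts on C3ar1 and C5a on C5ar1, both of which are carried by myeloid cells. The 9 genes lie on 5 mouse chromosomes of the GRCm38 build, all on the minus strand and all protein-coding. C1qb (chromosome 4, 136880129 to 136886187), C1qc (136889804 to 136893065) and C1qa (136895917 to 136898803) are neighbours. C4b (34728380 to 34743882), Cfb (34856374 to 34862518) and C3 (57203970 to 57228136) lie on chromosome 17, Cfp (20925454 to 20931555) on X, C3ar1 (122847138 to 122856161) on 6 and C5ar1 (16246743 to 16259540) on 7.

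RefSeq (GRCm38.p6) held the promoters of 6 members, C1qb, C1qc, C3, Cfp, C3ar1 and C5ar1. The 250 bases before the RefSeq start are printed 5′ to 3′ for 4 of them, since these show the start regions of a C1q chain, of the central component, of the gene with the steadiest differences and of the receptor that differed most. Capitals mark a motif match, and lower case the rest. The windows are chr4:136886201-136886450, chr17:57228137-57228386, chrX:20931556-20931805 and chr6:122856158-122856407, all read on the minus strand.
C1qb: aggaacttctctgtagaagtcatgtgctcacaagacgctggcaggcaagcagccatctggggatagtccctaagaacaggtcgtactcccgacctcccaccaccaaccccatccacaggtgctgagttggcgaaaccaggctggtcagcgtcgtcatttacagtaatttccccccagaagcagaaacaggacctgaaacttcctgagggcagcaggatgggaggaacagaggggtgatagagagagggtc
C3: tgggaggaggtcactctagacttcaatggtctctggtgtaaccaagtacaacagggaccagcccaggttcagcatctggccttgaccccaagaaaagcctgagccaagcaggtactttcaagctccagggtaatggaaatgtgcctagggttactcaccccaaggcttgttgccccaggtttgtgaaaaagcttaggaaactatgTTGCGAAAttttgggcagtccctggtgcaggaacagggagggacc
Cfp: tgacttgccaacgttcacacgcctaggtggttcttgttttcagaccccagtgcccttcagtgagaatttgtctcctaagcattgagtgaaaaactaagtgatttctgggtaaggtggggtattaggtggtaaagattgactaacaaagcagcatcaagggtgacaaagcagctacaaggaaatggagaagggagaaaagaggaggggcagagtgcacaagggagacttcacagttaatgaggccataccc
C3ar1: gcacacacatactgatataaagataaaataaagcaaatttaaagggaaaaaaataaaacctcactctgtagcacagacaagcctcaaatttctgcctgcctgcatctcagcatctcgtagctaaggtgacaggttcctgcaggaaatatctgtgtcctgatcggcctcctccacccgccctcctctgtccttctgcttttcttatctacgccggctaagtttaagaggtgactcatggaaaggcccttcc

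The motifs searched on both strands were PU.1 (GAGGAAGT), C/EBP (TTGCNNAA), STAT (TTCNNNGAA), IRF (GAAANNGAA) and the kappa B core (GGANNTTCC). The capitals in C3 are a match to the C/EBP letters, 45 to 38 bases before the start, and 9.56% of all 32851 promoters held such a match in the same window. C1qc had a match to the PU.1 letters 195 to 188 bases before its start, as 2.44% of promoters did, and C5ar1 to the IRF letters 66 to 58 bases before its start, as 7.13% did. These matches do not overlap another motif, and the windows of C1qc, C3ar1 and C5ar1 reach into the genes as GENCODE draws them. No window of the 6 held the STAT letters, found in 7.02% of promoters, or those of the kappa B core, found in 3.59%. A match is a description of the letters, and the data do not bear on binding.

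The libraries held 5.21 to 7.92 gigabases of aligned sequence each, estimated from the deposited coverage, with group medians between 6.42 and 6.88. The libraries of N and of LMS were of 2 kinds. In N 1, N 2, LMS 2 and LMS 5, the Y-linked genes Ddx3y, Eif2s3y, Kdm5d and Uty summed to at most 0.00204 FPKM, against 50.7 to 67.3 in the other 14, although all are labelled female. These 4 libraries were also the ones with the most T cell markers, whose 8 genes summed to 373 to 569 FPKM, against 7.18 to 66.0 in the other 5 libraries of N and LMS and 55.8 to 114 in LM and LMA. The 7 B cell markers summed to 3445 to 5933 FPKM in the 4, 130 to 954 in the other 5 and 1224 to 2001 in LM and LMA, and N 3 had the lowest sum of both lists, 130 for B cells and 7.18 for T cells. The sum of the 13 macrophage markers, most of it Lyz2 and Cd68, ran the opposite way, with 565 to 639 FPKM in the 4, 3095 to 3420 in the other 5 and 1916 to 2048 in LM and LMA, although 7 of the 13 markers were highest in the 4. The 10 neutrophil markers summed to 273 to 535, 25.8 to 303 and 1454 to 2790 FPKM in the same order. No marker of the T cell, B cell, macrophage or neutrophil lists was at 0 throughout any of these sets. In such bulk samples, fewer cells of a type and less RNA per cell cannot be told apart. The members' differences are therefore also given without the 4 libraries, which leaves a lone N library whose spread is assumed to be that of the other groups, and without the other 5. Markers that moved with a member are given beside it, and their part in the differences was not tested.

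**Figure D1:**
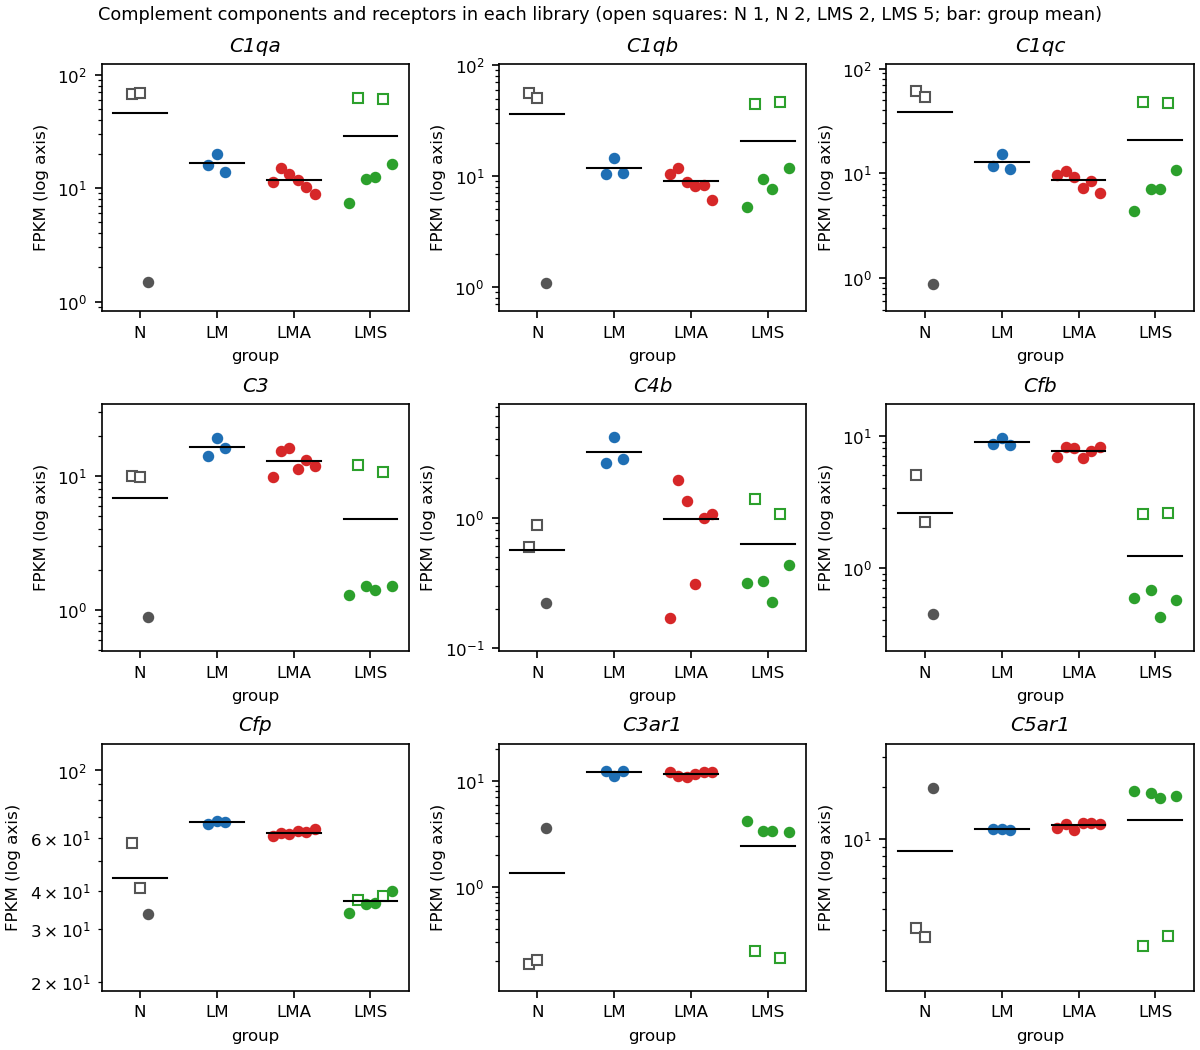
FPKM of each member (log axis) in each library, by group, with the group mean as a bar and N 1, N 2, LMS 2 and LMS 5 as open squares. The LM and LMA libraries of Cfb, Cfp and C3ar1 lie above every N and LMS library, and the open squares lie at the top of the C1q panels and at the bottom of the C3ar1 and C5ar1 panels.

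Against N, LM had higher C3ar1, Cfb, C4b and Cfp, and LMA had higher C3ar1, Cfb and Cfp. Against LM, LMS had lower C3, C3ar1, C4b, Cfb and Cfp. LMA had more C3, C3ar1, Cfb and Cfp than LMS. No member passed the test between LMS and N or between LMA and LM, and C1qa, C1qb, C1qc and C5ar1 passed the test in none of the 6 comparisons. Differences are on the log2(FPKM + 0.5) scale, which understates the change of low genes, with limma's adjusted p over all 11436 genes tested and a threshold of 0.05. The comparisons share libraries and are not independent of each other.

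In LM against N, 4 of the 9 members were called, all of them higher, beside 25.0% of all genes called and 9.18% called higher. In LMA against N it was 3 members, all higher, beside 35.4% of all genes and 13.6% called higher. LMS against LM gave 5 members, all lower, beside 21.3% called and 7.94% called lower. LMA against LMS gave 4, all higher, beside 30.7% called and 11.3% called higher. The median difference of the 9 members was 0.95 in LM against N and 0.54 in LMA against N, beside −0.12 and −0.13 over all genes tested. It was −0.86 in LMS against LM and 0.35 in LMA against LMS, beside 0.10 and −0.12. Scaling by the median of ratios took the shift of all genes in LM against N from −0.115 to −0.0213 and changed the split of all genes from 1050 higher and 1814 lower to 1418 and 1243. It left the number of members called as it was in every comparison.

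The counts depended on the libraries. Without N 1, N 2, LMS 2 and LMS 5, limma called 9 members in LM against N, 8 in LMA against N, 7 in LMS against LM and 5 in LMA against LMS, beside 60.3%, 61.6%, 68.1% and 72.1% of all genes. Without the other 5 libraries of N and LMS it called 9, 7, 8 and 7, beside 76.8%, 79.9%, 75.9% and 78.8%. The 9 members of LM against N did not move alike in these sets, since the C1q chains were higher and C5ar1 lower without the 4 libraries, and the C1q chains lower and C5ar1 higher without the other 5. Leaving out N 3 alone gave 8 in LM against N and 7 in LMA against N, beside 58.2% and 66.0% of all genes. With sample weights it was 7 members in LM, LMA and LMS against N each and 1 in LMA against LM, beside 58.9%, 60.8%, 59.6% and 1.43% of all genes. With only the LM and N libraries in the fit, the 4 members called in LM against N had limma adjusted p of 0.0848 (C4b) to 0.176 (Cfp), and none passed, beside 0.455% of all genes called.

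For LMS against N, limma called 0.0% of all genes and 0 members, with 506 genes and 0 members at an unadjusted p under 0.05. Without N 3 it called 6 members in LMS against N, beside 33.5% of all genes, and without N 1, N 2, LMS 2 and LMS 5 it called 3, the C1q chains, beside 5.27%. For LMA against LM it also called 0.0% of genes and 0 members, with 131 genes and 1 member, C4b, at an unadjusted p under 0.05. In that comparison the LMA libraries of C1qc, C4b, Cfb and Cfp all lay below the LM libraries. Of all genes tested, 3.82% had LMA wholly below LM in this way and 6.25% had no overlap in either direction.

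**Figure D2:**
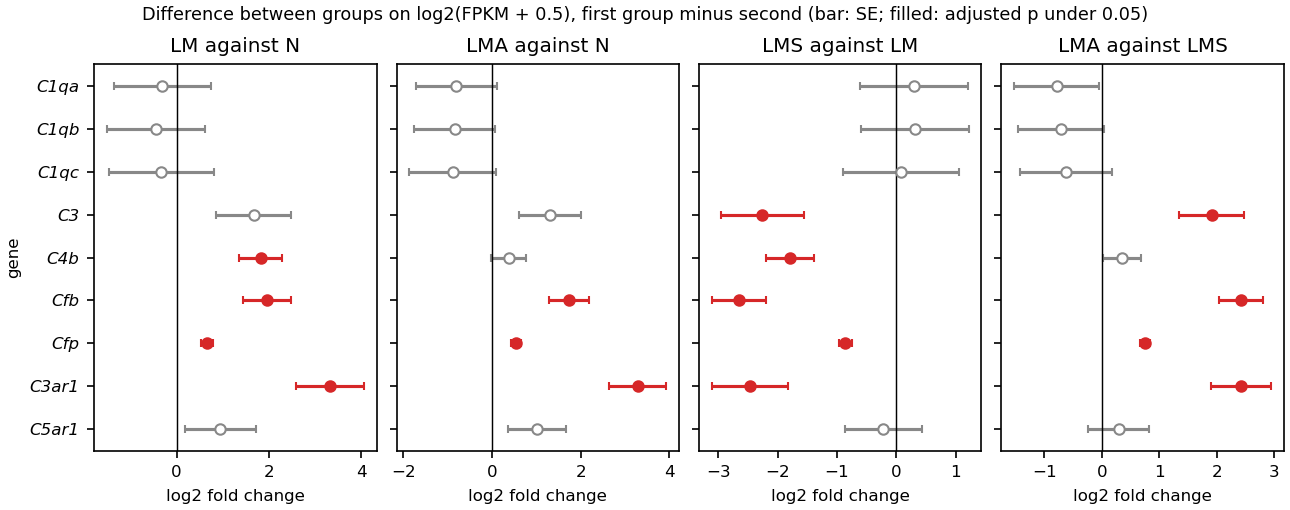
Differences between groups for each member on log2(FPKM + 0.5), the first group named minus the second, with the standard error as a bar and filled points for an adjusted p under 0.05. Cfb, Cfp and C3ar1 are filled in all 4 panels, and the C1q genes and C5ar1 are open in all 4 with standard errors of 0.53 or more.

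The C1q chains spanned a wide range of levels. C1qa was at 67.3, 68.9 and 1.48 FPKM in N 1, N 2 and N 3 and at 16.1, 20.0 and 14.0 in LM. LMA ran from 8.89 to 15.2 FPKM with a median of 11.5. In LMS it was 7.34, 12.1, 12.5 and 16.3 FPKM in LMS 1, 3, 4 and 6, and 62.0 and 61.3 in LMS 2 and LMS 5. The high values were thus in the 4 libraries without Y-linked transcripts, the lowest was in N 3, and the groups overlapped, apart from C1qc in LMA and LM.

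C1qb, at 56.6, 50.1 and 1.09 FPKM in N, 10.4, 14.6 and 10.6 in LM and 6.12 to 11.9 in LMA (median 8.54), followed the same order. C1qc was at 61.2, 53.9 and 0.873 FPKM in N, 11.9, 15.5 and 11.1 in LM, and 6.54 to 10.6 in LMA (median 8.89). In LMS 2 and LMS 5 C1qb was at 44.3 and 46.1 FPKM and C1qc at 47.7 and 46.8. In the other 4 LMS libraries they ran from 5.23 to 11.9 and from 4.38 to 10.8. The means by group, 45.9 ± 38.5 FPKM in N (SD, n = 3), 16.7 ± 3.04 in LM, 11.8 ± 2.22 in LMA (n = 6) and 28.6 ± 25.7 in LMS for C1qa, put N first and LMA last, but neighbours in this order overlapped and passed no test.

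While the level of each chain moved 46.6-fold to 70.1-fold between libraries, the chains stayed close to each other. FPKM is a level per length, so the chains can be set side by side. C1qa was at 1.08 to 1.62 times C1qb, with a median of 1.37, and C1qc at 0.756 to 1.14 times C1qb, with a median of 1.02. The chains are needed together in the C1q molecule, and no library had one of them without the others.

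**Figure D3:**
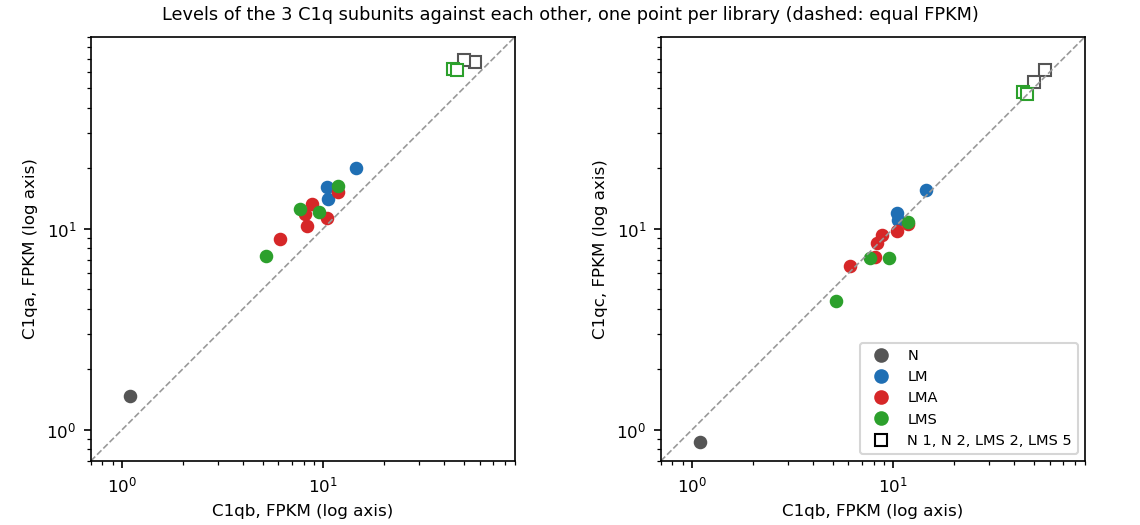
FPKM of C1qa (left) and C1qc (right) against C1qb on log axes, with a point per library and a dashed line of equal FPKM. C1qa lies above the line throughout, at 1.08 to 1.62 times C1qb, and C1qc lies near it, from N 3 at the lower left to N 1, N 2, LMS 2 and LMS 5 at the upper right.

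For the C1q chains the difference from N depended on which N library was used. In LM against N the differences were −0.31 for C1qa (SE 1.05, limma adjusted p = 0.837), −0.45 for C1qb and −0.33 for C1qc, and in LMA against N they were −0.80, −0.84 and −0.88. Without N 3 they were called lower, at −2.01, −2.14 and −2.13 in LM and −2.50, −2.54 and −2.68 in LMA. Without the 4 libraries N 1, N 2, LMS 2 and LMS 5 they were called higher instead, at 3.11, 2.94 and 3.27 in LM and 2.61, 2.55 and 2.72 in LMA. The direction of a C1q difference from N is therefore not fixed by these libraries. Nor is that between LMS and LM, where C1qa, C1qb and C1qc were 0.30, 0.31 and 0.08. They were −0.49, −0.48 and −0.81 without the 4 libraries, with C1qc called (adjusted p = 0.00733), and 1.87, 1.91 and 1.85, all called, without the other 5.

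Of the 13 macrophage markers, 7 had their 4 highest values in the same libraries as C1q. So did all 8 T cell, 7 B cell, 5 NK cell and 6 dendritic cell markers and 4 of the 6 monocyte markers. The pattern was thus not particular to macrophage genes. Vcam1, an adhesion molecule of splenic macrophages and stroma, was at 60.8 to 68.1 FPKM in N 1, N 2, LMS 2 and LMS 5, 0.978 in N 3 and 7.32 to 17.5 in LM and LMA. Slc40a1, the iron exporter ferroportin, was at 71.6 to 73.6 FPKM in the 4 and 1.11 in N 3, and Spic, a transcription factor of red pulp macrophages, at 15.5 to 22.9 and 0.196. Mrc1, Mertk, Marco and Cd163 went the same way. Lyz2, Cd68, Csf1r and Adgre1 went the other way, with their lowest values in the 4 libraries. Lyz2 and Cd68, markers of myeloid cells at large, were at 267 to 307 and 30.9 to 34.4 FPKM there and at 2888 and 302 in N 3. Csf1r was at 39.2 to 53.2 FPKM in the 4 and 193 in N 3, and Adgre1 at 14.7 to 21.3 and 31.3. The part of these markers in the C1q levels was not tested.

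C3, the component on which all pathways meet, was at 9.91, 9.74 and 0.889 FPKM in N and at 14.2, 19.1 and 16.2 in LM. LMA ran from 9.79 to 16.1 FPKM with a median of 12.4. In LMS it was 12.1 and 10.7 FPKM in LMS 2 and LMS 5 and 1.29 to 1.51 in the other 4. Every LM library lay above every N and every LMS library, while LMA overlapped both N and LMS. What share of all genes had LM above N and LMS in this way was not determined.

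LMS had less C3 than LM, with a difference of −2.26 (SE 0.70, limma adjusted p = 0.0298), and LMA had more than LMS, by 1.91 (SE 0.57, adjusted p = 0.0177). The difference from LM no longer passed in 9 of the alternatives tried, among them the fits without LM 1, LM 2 or LM 3 and without LMS 1, 3, 4 or 6, with adjusted p up to 0.104. With a replicate block it was 0.0503, since the numbers shared by LM and LMS libraries may pair them. All 3 same-numbered pairs deviated together, but these deviations hold the split of the libraries, with LMS 2 of a kind other than LMS 1 and LMS 3. They therefore cannot show a pairing. Against N, the difference was 1.67 in LM (SE 0.81, adjusted p = 0.138) and 1.32 in LMA (SE 0.70, adjusted p = 0.146). Without N 3 and LMS 1, 3, 4 and 6, C3 was 0.71 above N in LM (adjusted p = 0.00428), −0.51 against LM in LMS (adjusted p = 0.0262) and 0.16 above LMS in LMA (adjusted p = 0.401). Without N 1, N 2, LMS 2 and LMS 5 it was 3.60, −3.13 and 2.78. The neutrophil marker sums were highest in LM and LMA, but those of LMA, 2051 to 2790 FPKM, lay above those of LM, 1454 to 1699, and their part in C3 was not tested.

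C4b, which carries the classical and lectin pathways to C3, had the lowest mean level of the set in every group. It was at 0.595, 0.870 and 0.220 FPKM in N and at 2.62, 4.13 and 2.80 in LM. LMA held 0.170, 1.94, 1.33, 0.309, 0.995 and 1.06 FPKM in LMA 1 to LMA 6, and LMS ran from 0.225 to 1.38 with a median of 0.376. All 3 LM libraries lay above all 15 others, and the share of all genes that did so was not determined. The near-identical paralog C4a was at 0.521 FPKM at most, and reads that both genes share could be counted for either.

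C4b rose by 1.82 in LM against N (SE 0.46, limma adjusted p = 0.00941) and was lower in LMS than in LM, with a difference of −1.79 (SE 0.40, adjusted p = 0.00409). Without N 1, N 2, LMS 2 and LMS 5 these were 2.33 and −2.14, and without the other 5 libraries 1.57 and −1.08, the latter at an adjusted p of 0.0511. With sample weights the first of these was 1.44, at an adjusted p of 0.177. In LMA it was 0.38 against N (adjusted p = 0.455), and the difference of −1.44 from LM (SE 0.40) had an adjusted p of 1.0. That difference had an unadjusted p of 0.00248, and its adjusted p ran from 0.0184 with sample weights to 1.0 over the alternatives.

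Within LMA, C4b was low in LMA 1 and LMA 4, and other genes were low in the same libraries. C1s1 and Serping1, given next, are among the genes most like C4b over all 18 libraries and were named after their values were seen. Their likeness to C4b here is therefore no separate finding. Not every complement gene was low there, since Fcnb was at 9.39 and 11.3 FPKM in LMA 1 and LMA 4 and at 7.40 in LMA 2. What share of all genes was lowest in LMA 1 and LMA 4 was not determined. C1s1, the mouse C1s protease that cleaves C4, was at 0.0294 and 0.0273 FPKM in LMA 1 and LMA 4 and at 0.612 to 1.78 in the other 4. Serping1, the C1 inhibitor, was at 0.0980 and 0.0832 FPKM there and at 0.718 to 1.81 in the others. Clu, clusterin, a fluid-phase inhibitor of the membrane attack complex, was at 0.178 and 0.768 FPKM and at 8.31 to 20.4. The collagen gene Col1a2, a stromal marker, was at 0.0167 and 0.0583 FPKM in LMA 1 and LMA 4, 0.462 to 2.59 in the other LMA libraries and 2.17 to 2.47 in LM. Of the 6 stromal and endothelial markers, 5 had their lowest LMA values in these libraries, and the endothelial gene Pecam1 did not, with 4.84 FPKM in LMA 4. The sum of that list was highest not in LM, at 7.76 to 11.1 FPKM, but in N 1, N 2, LMS 2 and LMS 5, at 26.1 to 36.3. Platelet and megakaryocyte markers were low there too, in 3 of 4 genes. Ppbp was at 15.7 to 23.0 FPKM in LM, 0.306 and 0.395 in LMA 1 and LMA 4 and 2.56 to 6.19 in the other LMA libraries. Pf4 was at 11.3 to 16.8, 1.55 and 1.37, and 3.41 to 5.31 FPKM in the same order. The platelet sum, 29.7 to 44.3 FPKM in LM and at most 17.9 elsewhere, separated LM from all 15 other libraries as C4b did. Of the 7 red cell precursor markers, 4 were lowest in LMA 1 and LMA 4 as well. The liver markers Alb and Apoa1 were at 0.0180 FPKM at most and Ttr at 0 in all libraries, while Serpina1a was at 1.00 to 1.49 FPKM in LM, at most 0.0135 in LMA 1 and LMA 4 and at 0.194 to 0.707 in the other LMA libraries. The part of stromal cells, platelets or red cell precursors in these C4b levels was not tested.

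**Figure D4:**
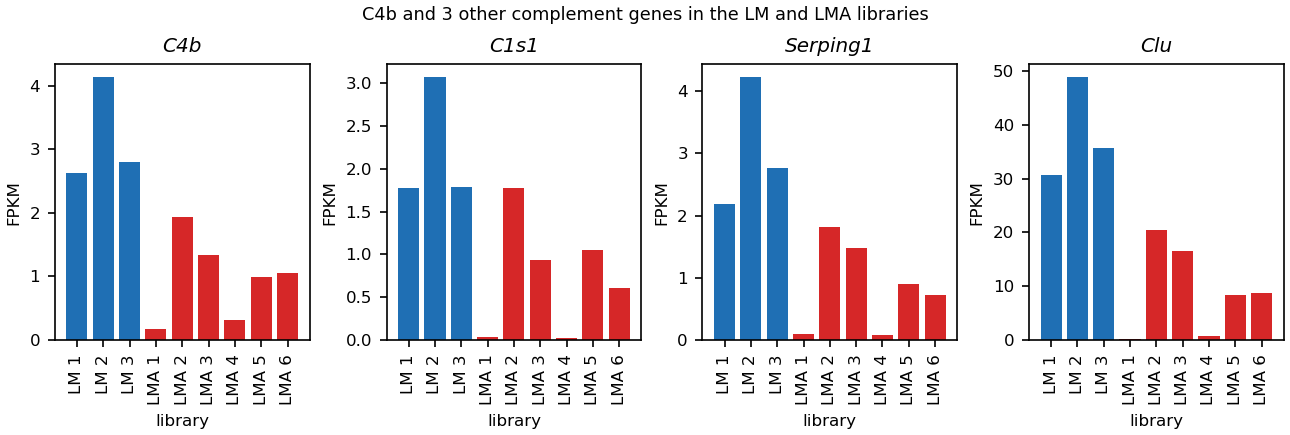
FPKM of C4b, C1s1, Serping1 and Clu in the 3 LM libraries (blue bars) and the 6 LMA libraries (red bars). All 4 genes are highest in LM 2 and low in LMA 1 and LMA 4, where C4b is at 0.170 and 0.309 FPKM. C1s1 and Serping1 are among the genes most like C4b over all libraries and were named after their values were seen.

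Cfb encodes factor B, the protease of the alternative pathway. It was at 5.04, 2.23 and 0.441 FPKM in N and at 8.67, 9.64 and 8.53 in LM. LMA ran from 6.82 to 8.19 FPKM with a median of 7.81, and LMS from 0.419 to 2.58 with a median of 0.632. Every LM and LMA library lay above every N and LMS library, as in 9.21% of all genes tested. Of the 10 neutrophil markers 8 separated the same libraries, with sums of 1454 FPKM or more in LM and LMA and 535 or less in N and LMS, and so did 3 of the 13 macrophage markers, Adgre1, Cd68 and Siglec1. The part of these cells in the Cfb level was not tested.

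Cfb rose by 1.96 in LM (SE 0.53, limma adjusted p = 0.0143) and by 1.74 in LMA (SE 0.46, adjusted p = 0.00894) against N. It was lower in LMS than in LM, with a difference of −2.65 (SE 0.46, adjusted p = 0.00059), and higher in LMA than in LMS, by 2.42 (SE 0.38, adjusted p = 0.00012). Leaving out either kind of N and LMS library left these calls in place. LM was 3.33 above N 3 alone and 1.28 above N 1 and N 2, and LMA was 2.94 and 1.40 above the corresponding LMS libraries. A protein-coding gene on the same strand, Gm20547, overlaps Cfb and stood at 0.602 to 0.771 times its FPKM in every library, and reads that both genes share could be counted for either.

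Cfp encodes properdin, which stabilises the alternative pathway enzyme and is stored in neutrophil granules. It was at 57.5, 40.7 and 33.6 FPKM in N and at 66.5, 68.0 and 67.6 in LM. LMA ran from 60.5 to 63.9 FPKM with a median of 62.4, and LMS from 33.7 to 39.9 with a median of 37.0. Cfp had the narrowest span of the set, 2.02-fold between the highest and lowest library, and LM and LMA again lay wholly above N and LMS.

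The rise of Cfp was 0.65 in LM (SE 0.13, limma adjusted p = 0.00220) and 0.54 in LMA (SE 0.11, adjusted p = 0.00205) against N. LMS was lower than LM with a difference of −0.86 (SE 0.11, adjusted p = 5.5e-05), and LMA was 0.75 above LMS (SE 0.09, adjusted p = 1.4e-05). LM was 0.99 above N 3 alone and 0.47 above N 1 and N 2, and LMA was 0.76 and 0.71 above the corresponding LMS libraries. In contrast to the C1q chains, the LMS libraries of both kinds had like levels of Cfp, 37.4 and 38.4 FPKM in LMS 2 and LMS 5 and 33.7 to 39.9 in the others. The sum of the neutrophil markers and 8 of the 10, among them S100a8, S100a9 and Ngp, separated the same libraries as Cfp did, as given for Cfb. Of the others, Cxcr2 was highest in N 1, N 2, LMS 2 and LMS 5, at 7.77 to 8.90 FPKM against 2.26 to 3.75 in LM and LMA, and Retnlg overlapped. The part of neutrophils in the Cfp level was not tested.

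C3ar1, the receptor of C3a, had the largest called difference of the set in LM and in LMA against N. It was at 0.186, 0.201 and 3.63 FPKM in N, at 12.5, 11.3 and 12.4 in LM and at 11.0 to 12.3 in LMA, with a median of 12.0. In LMS 2 and LMS 5 it was at 0.246 and 0.211 FPKM and in the other 4 at 3.31 to 4.22. LM and LMA lay wholly above N and LMS, and the lowest values were in the 4 libraries with the most C1q.

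Against N, C3ar1 rose by 3.32 in LM (SE 0.74, limma adjusted p = 0.00407) and by 3.29 in LMA (SE 0.64, adjusted p = 0.00103). It was lower in LMS than in LM, with a difference of −2.46 (SE 0.64, adjusted p = 0.0109), and LMA was 2.42 above LMS (SE 0.52, adjusted p = 0.00200). The calls held without either kind of library. LM was 1.61 above N 3 and 4.18 above N 1 and N 2, and LMA was 1.60 and 4.07 above the corresponding LMS libraries. The neutrophil sums and the markers Adgre1, Cd68 and Siglec1 separated LM and LMA from N and LMS as C3ar1 did. Of these markers, Cd68, at 30.9 to 34.4 FPKM, and Adgre1, at 14.7 to 21.3, were also lower in the 4 libraries than in the other 5, and Siglec1 was not. The part of these neutrophil and macrophage genes was not tested.

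C5ar1, the receptor of C5a, was lowest in the same 4 libraries as C3ar1 but did not follow it in LM and LMA. It was at 3.11, 2.76 and 19.7 FPKM in N, at 11.5, 11.5 and 11.4 in LM and at 11.3 to 12.5 in LMA, with a median of 12.3. In LMS 2 and LMS 5 it was at 2.42 and 2.79 FPKM and in the other 4 at 17.3 to 19.1. The LM and LMA libraries, within 11.3 to 12.5 FPKM, thus lay between the kinds of N and LMS library, and the order of group means, LMS 13.0 ± 8.06, LMA 12.0 ± 0.498 (SD, n = 6), LM 11.5 ± 0.0717 and N 8.53 ± 9.70 (n = 3), had only neighbours that overlapped and passed no test.

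For C5ar1 the difference from N was 0.95 in LM (SE 0.76, limma adjusted p = 0.361) and 1.02 in LMA (SE 0.65, adjusted p = 0.226). Here too the direction turned with the libraries used. Against N 1 and N 2 it was 1.81 and 1.87 (adjusted p = 9.7e-10 and 2e-10), and against N 3 alone −0.76 and −0.69 (adjusted p = 6.9e-07 and 7.3e-07). LMA was 2.02 above LMS 2 and LMS 5 (adjusted p = 9.8e-11) and −0.57 against the other LMS libraries (adjusted p = 1.2e-08). LMS against LM was −0.22, and it was 0.64 without the 4 libraries (adjusted p = 3.3e-08) and −1.95 without the other 5 (adjusted p = 4.6e-10). Lyz2 moved with C5ar1. It was at 267 to 307 FPKM in N 1, N 2, LMS 2 and LMS 5, 2589 to 2888 in the other 5 and 1386 to 1491 in LM and LMA. Csf1r took the same order, but 7 of the 13 macrophage markers were highest in the 4 libraries, where C5ar1 was lowest. The neutrophil markers did not follow C5ar1 either, with sums of 25.8 to 303 FPKM in the other 5 and 1454 to 2790 in LM and LMA. The part of these markers in the C5ar1 level was not tested. Hc, the gene of C5 itself, was at 0.0412 FPKM at most in all libraries.

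A list of 51 further complement genes put the set in its pathway, and 24 of them passed the filter on low values. In LM against N, 5 were higher and 1 lower, or 6 of 24 beside 25.0% of all genes. In LMA against N 3 were higher and 1 lower, in LMS against LM 1 higher and 6 lower, and in LMA against LMS 3 higher and 2 lower, beside 35.4%, 21.3% and 30.7%. limma called 0 of the 24 in LMS against N and in LMA against LM, where 1 and 4 of them had an unadjusted p under 0.05. Their median difference was 0.17 in LM against N and −0.02 in LMA against N, beside −0.12 and −0.13 over all genes.

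The integrin chains Itgam and Itgb2, which pair as complement receptor 3 and bind fragments of C3b, were among the most clearly separated. Itgam was at 13.4, 10.0 and 24.1 FPKM in N, 95.4, 90.1 and 93.7 in LM, 94.9 to 103 in LMA and 9.91 to 22.6 in LMS. It rose by 2.61 in LM and 2.72 in LMA against N and was lower in LMS than in LM, with a difference of −2.40 (SE 0.28, limma adjusted p = 1.6e-05). A further row of the tables bears the Itgam name and was not used, and reads of the 2 rows may be shared. Itgb2 rose by 1.00 in LM and 1.04 in LMA and was lower in LMS than in LM, with a difference of −1.25 (SE 0.11, adjusted p = 8.3e-07). Itgax, the chain of complement receptor 4, was not called in any comparison, with means of 11.5 FPKM in N, 8.16 in LM, 8.36 in LMA and 6.26 in LMS. It was at 11.7 to 20.5 FPKM in N 1, N 2, LMS 2 and LMS 5 and 2.28 to 3.38 in the other 5, and in LM against N it was called 1.64 higher without the 4 (adjusted p = 7.5e-09) and −0.89 without the other 5 (adjusted p = 0.00042).

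Among the recognition molecules, Fcnb, a ficolin of myeloid granules, was higher in LM by 2.85 and in LMA by 3.48 than in N. It was at 5.23 to 6.27 FPKM in LM, 7.40 to 11.3 in LMA, and at most 1.74 in N and LMS. LMS was lower than LM with a difference of −2.34 (SE 0.38, limma adjusted p = 0.00031). Fcna, the other ficolin, was called in none of the comparisons and took its 4 highest values, 42.8 to 51.5 FPKM, in N 1, N 2, LMS 2 and LMS 5, as C1q did. The collectin Colec12 went the other way, with 0.451 to 2.58 FPKM in these 4, 69.1 to 77.0 in the other 5 libraries of N and LMS and 33.6 to 35.7 in LM and LMA, and was not called either. Without the 4 libraries Fcna was 0.85 and Colec12 −1.14 in LM against N, and without the other 5 they were −1.72 and 4.38, all called.

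Regulators were mostly not called. Cr1l, the mouse membrane regulator Crry, was the exception in the opposite direction, lower in LM with a difference of −0.66 (SE 0.22, limma adjusted p = 0.0364) and in LMA with a difference of −0.56 than in N, and higher in LMS than in LM, by 0.89 (SE 0.19, adjusted p = 0.00275). Without N 1, N 2, LMS 2 and LMS 5 the differences of Cr1l from N were −0.21 (adjusted p = 0.332) and −0.10 (adjusted p = 0.606) and passed no test, while LMS stayed above LM by 0.71. Clu was lower in LMS than in LM, with a difference of −4.58 (SE 1.23, adjusted p = 0.0134), with means of 38.4 ± 9.39 FPKM (SD, n = 3) in LM and 2.66 in LMS. Without the other 5 libraries of N and LMS it was −2.27 (adjusted p = 0.12) and did not pass. The C1s protease gene C1s1 and the C1 inhibitor Serping1, both under 5 FPKM in every library, were higher in LM than in N and lower in LMS than in LM, but without the other 5 libraries C1s1 did not pass in the latter, at −1.16 (adjusted p = 0.0739). There the difference of Serping1 was −1.33, against −2.22 with all libraries. Cd55, which speeds the decay of the C3 enzymes, was at 102 to 124 FPKM in N 1, N 2, LMS 2 and LMS 5, 1.36 to 16.5 in the other 5 and 12.6 to 21.4 in LM and LMA, and was not called. Cr2, complement receptor 2 of B cells, was at 72.6 to 92.9 FPKM in the 4 and 0.903 to 18.1 elsewhere and was not called. In LM against N, Cd55 and Cr2 were called 3.18 and 3.39 higher without the 4, and at −2.75 and −2.48 without the other 5. Calr and C1qbp, which can bind C1q, had means of 244 and 71.8 FPKM in N and 327 and 80.0 in LM and were not called. C1qbp too turned in LM against N, at −0.76 without the 4 and 0.99 without the other 5, both called, and Calr was −0.08 and, called, 0.76.

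**Figure D5:**
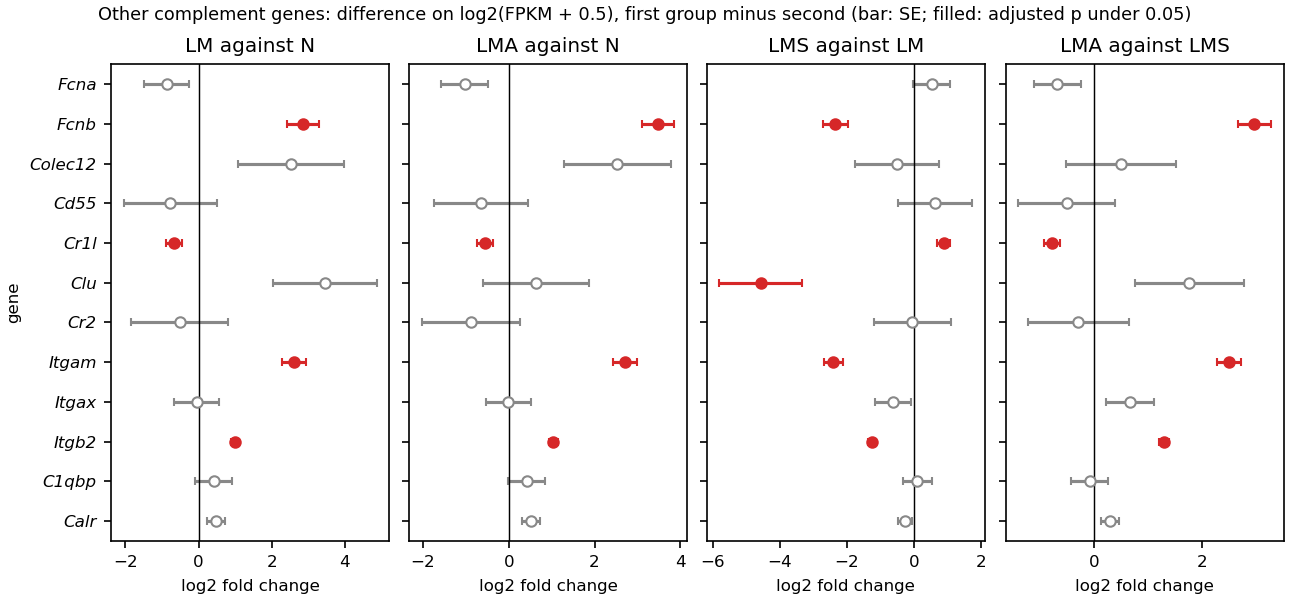
Differences between groups on log2(FPKM + 0.5) for other complement genes tested with a mean of at least 5 FPKM in a group, with the standard error as a bar and filled points for an adjusted p under 0.05. Itgam, Itgb2 and Fcnb are filled in all 4 panels in the direction of Cfb, Cfp and C3ar1, and Cr1l is filled in the opposite direction.

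The genes most like each member were those with the smallest root mean square difference of centred log2(FPKM + 0.5) over all 18 libraries, which is a description and includes the split of the libraries. For C1qa these were Ltb (0.13), C1qb (0.13) and Ctsh (0.15), for C1qb C1qa, Ltb and C1qc, and for C1qc Vcam1 (0.14), C1qb (0.15) and Gimap9 (0.17), against a root mean square of 1.25 to 1.33 of these members around their own means. Ltb encodes lymphotoxin beta, made by lymphocytes. For C4b they were C1s1 (0.21), Serping1 (0.24) and Smoc2 (0.25), the first and second of which belong to complement as well. For C3 they were Nt5e (0.27), Cd274 (0.28), which encodes PD-L1, and Clec4a1 (0.29).

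For Cfb the nearest genes were the overlapping Gm20547 (0.14), the membrane protease Mmp14 (0.25) and Klra2 (0.28), and for Cfp they included Agpat9 (0.08) and Zswim4 (0.09). C3ar1 was nearest to the creatine transporter Slc6a8 (0.14), Basp1 (0.15) and Serinc2 (0.18). Basp1 was at 103 to 119 FPKM in LM and LMA, 34.4 to 39.5 in N 3 and LMS 1, 3, 4 and 6, and 7.20 to 7.76 in the other 4, the same 3 steps as C3ar1. C5ar1 was nearest to Tbx15 (0.09), Raet1e (0.10) and Thyn1 (0.10). Thyn1 had its highest values, 32.4 to 35.7 FPKM, in the 5 libraries in which C5ar1 was highest, and 22.0 to 25.7 in LM and LMA. No gene among the 3 nearest of C3ar1 was among those of C5ar1. That was not particular to them, since C3, C4b, Cfb and Cfp shared none with each other or with these receptors either.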

How the data were processed

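Splenocyte RNA of 18 samples was sequenced on a NovaSeq instrument. The authors estimated raw counts and deposited FPKM per gene for each sample. Which aligner was used is not given in the sources used here. The submitters' processing notes name mm10 and GATK 4.2. The deposited coverage signal was used only with FPKM to estimate aligned sequence, and the deposited column headed TPM, treated as a score, was not used because assembled loci alone sum to 1000000 in it. No counts are given, so no counting intervals were computed. Reference genes were taken, and repeated gene IDs were summed.

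limma 3.58.1 (R 4.3.3, trend) was applied to log2(FPKM + 0.5), with a term for the 4 groups and all 18 libraries in a joint fit. It covered the 11436 protein-coding genes (GENCODE M21) with a mean of at least 0.5 FPKM, with Benjamini-Hochberg adjustment and a threshold of 0.05. The fit was tried on simulated data with independent noise for each gene. Such data do not hold the split of the N and LMS libraries, so the trial does not bear on it. Python 3.11.15, pandas 2.3.3 and matplotlib 3.10.9 made the tables and figures. The members and gene lists were chosen with earlier results of these data known. Named were the 9 members, the listed complement genes tested with a mean of at least 5 FPKM in any group, the 3 nearest genes of each member and markers. A gene of the complement list and a nearest gene are not reported here. C1s1, Serping1, C4a and Hc, under 5 FPKM, were added after their values were seen. Alternatives were other pseudocounts (0.1 and 1), filters (none, and a mean of at least 1 FPKM) and scalings (TPM and the median of ratios). A fit of only the compared groups, sample weights, a replicate block, leaving out each sample, and 2 sets of libraries chosen after seeing the data were also tried. Deviations of same-numbered samples from their group means correlated over 0.1 in 13 of 21 pairs (range −0.642 to 0.906). All 3 pairs of LM and LMS did (0.223, 0.431 and 0.240), so the block is given beside the result it changes there, and no other pair of groups did throughout. The labels do not say what a number marks.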

Additional observations from a re-analysis of the deposited data

How the results depend on the processing

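The 16 called differences of members were refitted 320 times in all. None of these 16 differences changed direction, and of the values 304 stayed past the threshold and 16 did not, 9 of them C3 in LMS against LM. With only the compared groups in the fit, the 4 members called in LM against N became 0, with 52 genes called instead of 2864. Sample weights, whose estimation stopped before it converged, gave 7 members in LM, LMA and LMS against N each and 1 in LMA against LM, beside 58.9%, 60.8%, 59.6% and 1.43% of all genes. Leaving out a sample in turn gave 4 to 8 members in LM against N, 3 to 7 in LMA against N, 0 to 6 in LMS against N, 4 to 5 in LMS against LM, 4 in LMA against LMS and 0 in LMA against LM, and the highest of the first 3 ranges came from leaving out N 3. Without N 3 the share of all genes was 58.2%, 66.0% and 33.5%. The set that drops N 1, N 2, LMS 2 and LMS 5 gave 9, 8 and 3 members in LM, LMA and LMS against N, beside 60.3%, 61.6% and 5.27% of all genes. Without the other 5 libraries of N and LMS they were 9 and 7 in LM and LMA against N, 8 in LMS against LM and 7 in LMA against LMS, beside 76.8%, 79.9%, 75.9% and 78.8% of all genes. The same fit called 0 members in LMS against N, and 2 of 11436 genes. These 2 sets were chosen after seeing the data. The cause of these changes was not tested.

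Of the 38 differences of members that were not called, 26 changed direction in at least 1 alternative, 14 of them past the threshold there. In LM against N, C1qa, C1qb and C1qc were 0.54, 0.45 and 0.61 without N 1, 0.56, 0.36 and 0.52 without N 2, and 3.11, 2.94 and 3.27 without the 4 libraries. In LMA against N they were 0.05, 0.05 and 0.06 without N 1 and 2.61, 2.55 and 2.72 without the 4, and C1qa was 0.06 without N 2. Without N 3 they stayed lower and passed the threshold, at −2.01, −2.14 and −2.13 in LM and −2.50, −2.54 and −2.68 in LMA. C5ar1 without the 4 was −0.76 in LM and −0.69 in LMA. In LMS against LM, C1qa, C1qb and C1qc were −0.49, −0.48 and −0.81 without the 4 and −0.41, −0.38 and −0.73 with sample weights. C1qc was −0.01 on the TPM scale and −0.00 by the median of ratios. Leaving out a sample in turn, they ran from −0.02 to 0.58, −0.01 to 0.59 and −0.28 to 0.38, with the values below 0 from leaving out LMS 2, LMS 5 or, for C1qc, LM 3. C5ar1 was 0.64 without the 4, 0.62 with sample weights and −0.41 to 0.14 with a sample left out, above 0 without LMS 2 or LMS 5. In LMA against LMS, C1qb and C1qc were 0.08 and 0.26 without the 4 and 0.03 and 0.22 with sample weights, and C5ar1 was −0.57 and −0.56 in these fits and −0.07 to 0.48 with a sample left out, below 0 without LMS 2 or LMS 5. In LMS against N, C3, Cfb and Cfp were −0.58, −0.69 and −0.21 and, without the 4, 0.47, 0.17 and 0.12, none of them called.

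With a replicate block, 4 members remained called in LM against N, 3 in LMA against N, 4 in LMA against LMS and 4 of 5 in LMS against LM, where C3 had an adjusted p of 0.0503 by limma. No other call of a member changed. Depth is known only as aligned sequence, and genes near 0 FPKM are below the level tested.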
